A study of Mus musculus with 21 samples.

Results

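The genes described here encode the proteasome: its core particle, its regulatory particle, its activators and inhibitor, and the factors that help to assemble it. Members were the genes whose symbol is Psm followed by 1 of the letters a to g and a number, without the immunoproteasome subunits Psmb8, Psmb9 and Psmb10, and with a mean of at least 50 counts over the 6 RNA-seq libraries. The pattern matched 48 symbols, 45 were left without the immunoproteasome subunits, and 43 of the 24421 genes in the count table were members. Below the minimum were Psmb11 and Psma8, subunits of the thymus and testis forms of the core particle, with mean counts of 1.8 and 4.8, and the lowest members were Psmg3 with 407.3 and Psmg4 with 536.0. All 43 members passed the filter on low counts that left 12786 genes for testing.

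Poly(A) RNA was sequenced from primary bone marrow B cell precursors of 53BP1-/- C57BL/6 mice, cultured ex vivo with 10 ng/ml of IL-7. The cells were spinoculated on culture days 2 and 3 with the MIGR1 retroviral vector, either empty (EV) or carrying human BCR-ABL1 (the p210 form, a tyrosine kinase fusion) or mouse C-MYC (a transcription factor), and were harvested 7 to 9 days later. Each of the 3 conditions had 2 libraries from duplicate experiments, so that all 6 libraries shared the 53BP1 deletion, the vector backbone and the cytokine. The other 15 of the 21 samples of the series are chromatin immunoprecipitation samples and were not analysed here. The comparisons ask which transcripts differ early after transduction with an oncogene, with EV as the control. The labels do not say that the duplicates came from separate animals, so p-values measure the spread between these libraries. In bulk RNA, fewer cells of a type and less RNA per cell cannot be told apart.

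The libraries held between 20687092 and 24095955 counts. Myc had counts of 3869 and 3277 (EV libraries), 7239 and 8381 (BCR-ABL1 libraries) and 37920 and 27450 (C-MYC libraries), and the count of the mouse gene includes the transduced C-MYC. The human BCR-ABL1 transcript has no row in a mouse count table, and Trp53bp1, the deleted gene, had 342 to 723 counts in the 6 libraries, which does not check the deletion because the deleted part is not given in the sources used here. Marker genes of B cell precursors, 11 in all and none at 0 in any condition, summed to 5670 to 6450 CPM (counts scaled to the library size) in EV libraries, 5830 to 6480 CPM in BCR-ABL1 libraries and 3300 to 3920 CPM in C-MYC libraries. Markers of myeloid, T and NK and stromal cells were highest in EV. The 14 myeloid markers summed to 1270 to 1760 CPM (EV), 159 to 171 (BCR-ABL1) and 205 to 346 (C-MYC), and the 8 T and NK cell markers to 102 to 140, 7.92 to 9.43 and 3.91 to 6.06. The 6 stromal markers summed to 102 to 156, 4.93 to 5.98 and 1.75 to 2.56 CPM, with Lum at 0 in all conditions, Dcn at 0 in BCR-ABL1 and C-MYC and Cxcl12 at 0 in C-MYC. The 4 erythroid markers summed to at most 1.54 CPM, with Hba-a1 and Hbb-b1 at 0 throughout. The sums of the myeloid, T and NK and stromal markers move with both comparisons against EV, and that of the B cell precursor markers with C-MYC against EV. The part of these cells in the results below was not tested.

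The proteasome degrades proteins that carry a ubiquitin tag. Its barrel, the 20S core particle, has outer rings of alpha subunits and inner rings of beta subunits, of which Psmb5, Psmb6 and Psmb7 cut the chain. The 19S regulatory particle caps the barrel: its lid and base bind and deubiquitinate substrates, and its ring of ATPases unfolds them. Other caps open the barrel without ATP, namely the Psme1 and Psme2 heteromer (PA28 alpha and beta), Psme3 (PA28 gamma) and Psme4 (PA200). Psmg1 to Psmg4 are chaperones of 20S assembly, and Psmd5, Psmd9 and Psmd10 are chaperones of the 19S base that are not part of the finished particle. In many cell types the factor NFE2L1 drives these genes when proteasome activity falls.

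The member genes lay on 16 chromosomes with at most 8 on 1 of them. Promoters, taken as the 250 bases before to 50 bases after the transcription start in RefSeq on build GRCm38.p6, were at hand for 36 of the 43 members, and Psmb1, Psmb2, Psmb7, Psmc3, Psmd3, Psmd7 and Psmg2 had no entry. A gene counted as holding a motif where any of its promoters did. The palindromic E-box CACGTG, the letters that MYC binds with its partner MAX, was found in 3 of the 36 members (8.33%). It was in 8.09% of all 27025 genes with a promoter and in 11.7% of the 9714 tested genes with a promoter. The 3 members are shown because C-MYC is an arm of the study, with the E-box in capitals. It starts 140 bases before the transcription start of Psma4 (chr9:54950609-54950908, plus strand), 51 bases before that of Psmd9 (chr5:123227940-123228239, plus strand) and 44 bases before that of Psme3 (chr11:101315963-101316262, plus strand).
Psma4: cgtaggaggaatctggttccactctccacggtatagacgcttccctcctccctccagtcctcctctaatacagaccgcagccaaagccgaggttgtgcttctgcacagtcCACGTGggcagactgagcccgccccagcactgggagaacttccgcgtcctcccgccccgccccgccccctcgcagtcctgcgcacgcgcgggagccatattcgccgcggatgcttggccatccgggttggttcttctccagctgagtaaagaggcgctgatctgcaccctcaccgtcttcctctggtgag
Psmd9: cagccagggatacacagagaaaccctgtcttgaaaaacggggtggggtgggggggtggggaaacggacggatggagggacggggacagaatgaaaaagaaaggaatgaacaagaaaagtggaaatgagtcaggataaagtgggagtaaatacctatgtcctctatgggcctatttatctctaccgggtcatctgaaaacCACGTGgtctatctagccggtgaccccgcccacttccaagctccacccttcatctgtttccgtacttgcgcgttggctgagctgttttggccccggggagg
Psme3: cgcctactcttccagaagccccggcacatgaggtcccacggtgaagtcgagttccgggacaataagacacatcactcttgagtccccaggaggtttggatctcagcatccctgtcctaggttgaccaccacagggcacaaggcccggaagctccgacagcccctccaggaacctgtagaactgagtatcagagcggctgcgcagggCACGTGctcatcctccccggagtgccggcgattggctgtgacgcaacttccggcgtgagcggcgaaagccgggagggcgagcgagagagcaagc

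The letters TGANNNNGC, with any base at N, were searched on both strands. They are a loose form of the core of the antioxidant response element that NFE2 family factors bind, so a match need not be such an element. They were found in 20 of the 36 members with a promoter (55.6%), against 45% of all genes with a promoter and 48.1% of such tested genes. The promoters of Psmg1 (chr16:95990911-95991210, minus strand), the member with the largest difference between C-MYC and EV, and of Psmd1 (chr1:86064369-86064668, plus strand), the member with the smallest adjusted p in BCR-ABL1 against EV, are shown with this motif in capitals, which starts 238 bases and 224 bases before the transcription start.
Psmg1: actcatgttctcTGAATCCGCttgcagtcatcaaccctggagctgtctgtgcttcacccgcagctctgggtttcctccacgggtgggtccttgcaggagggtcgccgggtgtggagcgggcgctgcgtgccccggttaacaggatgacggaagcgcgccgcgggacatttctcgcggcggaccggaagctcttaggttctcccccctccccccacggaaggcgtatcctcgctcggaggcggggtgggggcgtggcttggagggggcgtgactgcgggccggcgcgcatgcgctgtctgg
Psmd1: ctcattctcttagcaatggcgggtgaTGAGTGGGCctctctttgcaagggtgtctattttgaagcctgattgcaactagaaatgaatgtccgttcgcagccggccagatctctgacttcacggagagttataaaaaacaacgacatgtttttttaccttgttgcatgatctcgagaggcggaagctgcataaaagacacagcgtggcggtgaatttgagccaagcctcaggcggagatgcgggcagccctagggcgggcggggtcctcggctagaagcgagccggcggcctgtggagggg
The CCAAT box (CCAAT, either strand) was in 12 of the 36 members (33.3%, against 42.9% of tested genes). The GC box (GGGCGG, either strand) was in 22 (61.1%, against 67.8% of tested genes). Matches of TGANNNNGC can overlap those of the other motifs. A match describes the letters of the window only.

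Proteasome transcripts took a larger share of the library in both oncogene conditions than in EV, and the largest in C-MYC. Summed over the 43 members, EV libraries had 6214 and 5954 CPM, BCR-ABL1 libraries 7079 and 7079, and C-MYC libraries 8557 and 8462. The conditions did not overlap. Mean sums were 6084 ± 184 (EV, SD, n = 2), 7079 ± 0.384 (BCR-ABL1) and 8510 ± 66.7 (C-MYC), ratios to EV of 1.16 and 1.4. As a share of all counts, which scales each library by its total alone, members took 0.643% and 0.628% of the EV libraries, 0.701% and 0.707% of the BCR-ABL1 libraries and 0.808% and 0.83% of the C-MYC libraries. Differences were smaller on library totals. The median log2 fold change of members was 0.382 on totals and 0.501 with the scaling of the CPM in C-MYC against EV. In BCR-ABL1 against EV it was 0.179 and 0.249. With 2 libraries against 2 an exact permutation test cannot reach significance, so the sums carry no p-value.

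**Figure D1:**
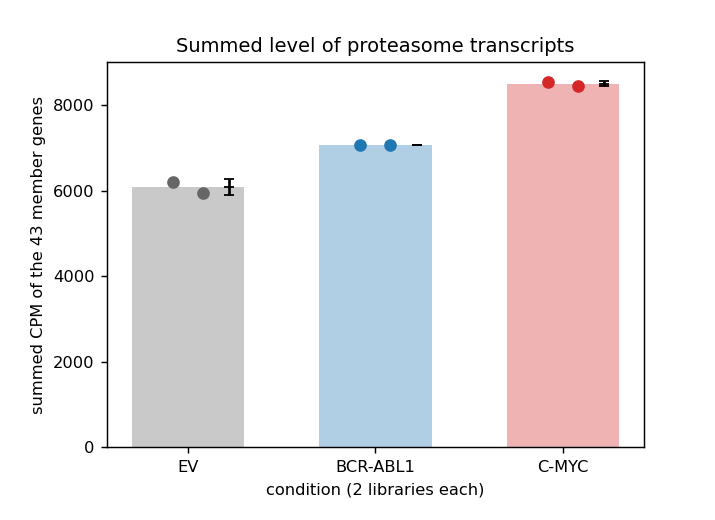
Summed CPM of the 43 member genes by condition. Bars are means of 2 libraries, points are the libraries (6214 and 5954 for the 2 EV libraries, 7079 and 7079 with BCR-ABL1, 8557 and 8462 with C-MYC) and the black bar is 1 SD; the 3 conditions do not overlap.

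The rise was shared by most members rather than carried by a few. In the first and second EV library 27 and 16 members were above their EV mean, which these same 2 libraries set. In the BCR-ABL1 libraries 39 and 39 members were above it, and in the C-MYC libraries 41 and 40. The log2 fold change against EV was above 0 for 39 members in BCR-ABL1, beside 6415 of the 12786 genes tested. In C-MYC it was above 0 for 41 members, beside 5795 genes. The median member differed from its EV mean by 0.24 and 0.27 on the log2 scale in the BCR-ABL1 libraries and by 0.50 and 0.50 in the C-MYC libraries. For 28 members (65.1%) both EV libraries were below both BCR-ABL1 libraries and these were below both C-MYC libraries, an order found in 13.3% of all genes tested. They included 4 of the 20S alpha genes (Psma2, Psma3, Psma5 and Psma7), all 19S ATPases (Psmc1 to Psmc6) and every lid gene except Psmd8. Condition means rose in this order for 36 members (83.7%), against 26.8% of genes tested.

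**Figure D2:**
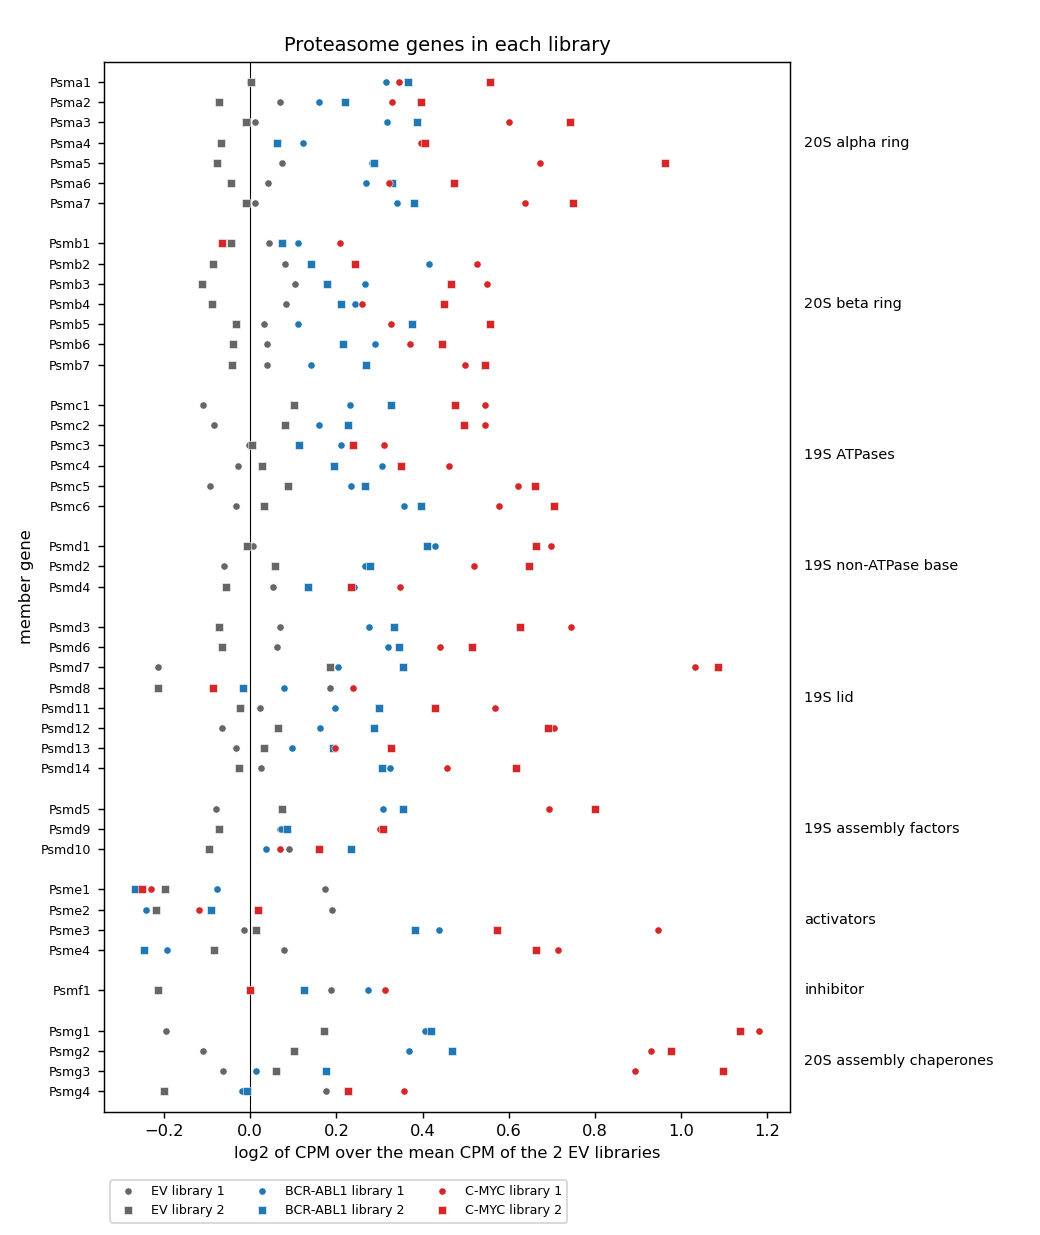
Level of each member in each library, as log2 of its CPM over its mean CPM in EV (x axis), grouped by subunit class; circles are the first and squares the second library of a condition. C-MYC libraries lie to the right of BCR-ABL1 libraries and these to the right of EV for 28 of 43 members. Psme1 lies left of its EV mean in every BCR-ABL1 and C-MYC library, and Psme2 in all but the second C-MYC library. Psme4 lies left of EV in BCR-ABL1.

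Most of the proteasome genes were higher in C-MYC than in EV. With edgeR's quasi-likelihood test over all 6 libraries and a Benjamini-Hochberg adjusted p under 0.05 over 12786 genes, 31 of 43 members (72.1%) were higher, where 18.6% of all genes tested were, and 0 members were lower, where 24.5% of genes were. The unadjusted edgeR p was under 0.05 for 36 members, none of them lower, and in either direction for 6648 of the 12786 genes. DESeq2 called 35 members higher and 0 lower, beside 2647 and 2823 of its 17273 genes. Members have high counts, and of the 7278 genes with a mean count at least that of the lowest member 26.3% were called higher and 20.4% lower. The median log2 fold change of the members was 0.50, against -0.08 over all genes tested and 0.05 over the genes with such counts. Libraries did not overlap, with C-MYC higher, for 37 members (86%; 31.5% of all genes). Of the 31 members, 19 were called under all 16 other settings, from every scaling and test to each library left out. Leaving out the first or second C-MYC library left 24 or 23 members called, and without the second EV library or either BCR-ABL1 library 28 were. The 12 members lost in at least 1 setting were Psma1, Psma2, Psma4, Psma6, Psmb3, Psmb4, Psmb5, Psmb6, Psmc1, Psmc4, Psmd6 and Psmd11.

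**Figure D3:**
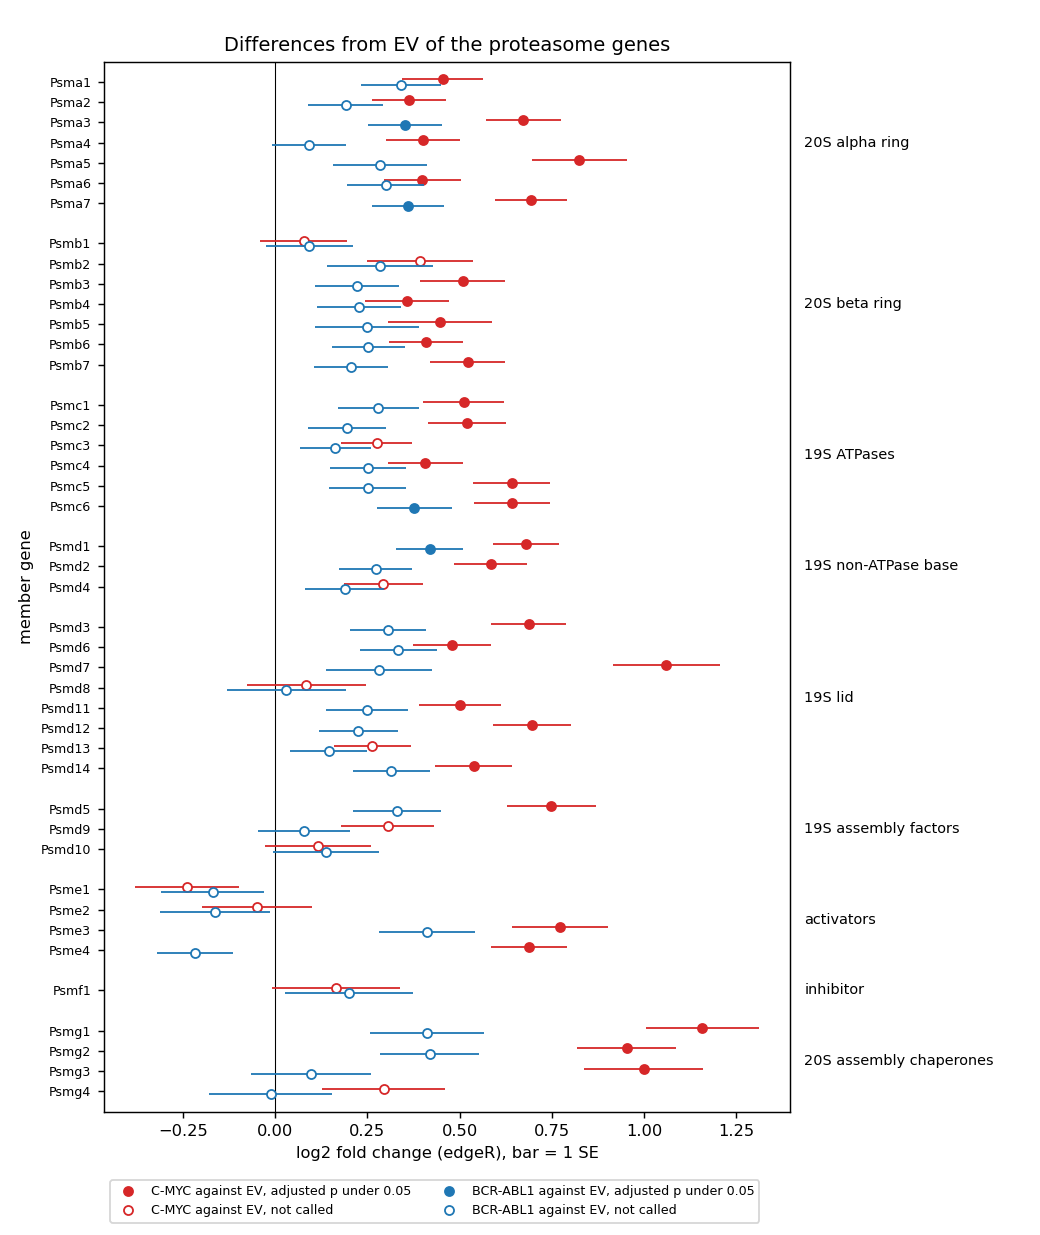
log2 fold change of each member against EV (x axis, edgeR, bars are 1 SE) for C-MYC (red) and BCR-ABL1 (blue); filled points passed an adjusted p of 0.05. In C-MYC 31 members are filled and all of them lie right of 0, in BCR-ABL1 4 are filled, and the 2 colours share the same EV libraries.

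Within the complex the differences lay close together. The 31 members that are subunits of the 20S and 19S particles all had a log2 fold change above 0 between C-MYC and EV. Psmb1 and Psmd8 fell below 0 once libraries were scaled by their totals (-0.042 and -0.034) or FPKM were used. Both also did with a library left out, at the lowest -0.059 and -0.1. Of them 25 were called, with a median of 0.50 and a range of 0.08 to 1.06. Their SD was 0.20, and that of the 43 members 0.29, against 1.22 for all genes tested and 0.95 for those that average 50 counts or more. The median SE of a single gene was 0.11 for members, 0.18 for all genes tested and 0.16 for those that average 50 counts or more. These spreads are therefore not compared at equal precision. Of the 19S subunits without a Psm symbol, which are no members, Adrm1 was called higher (log2 0.48) and the lid subunit Shfm1 (Sem1) was not, with overlapping libraries (log2 -0.01 ± 0.17 SE, edgeR adjusted p = 0.975).

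**Figure D4:**
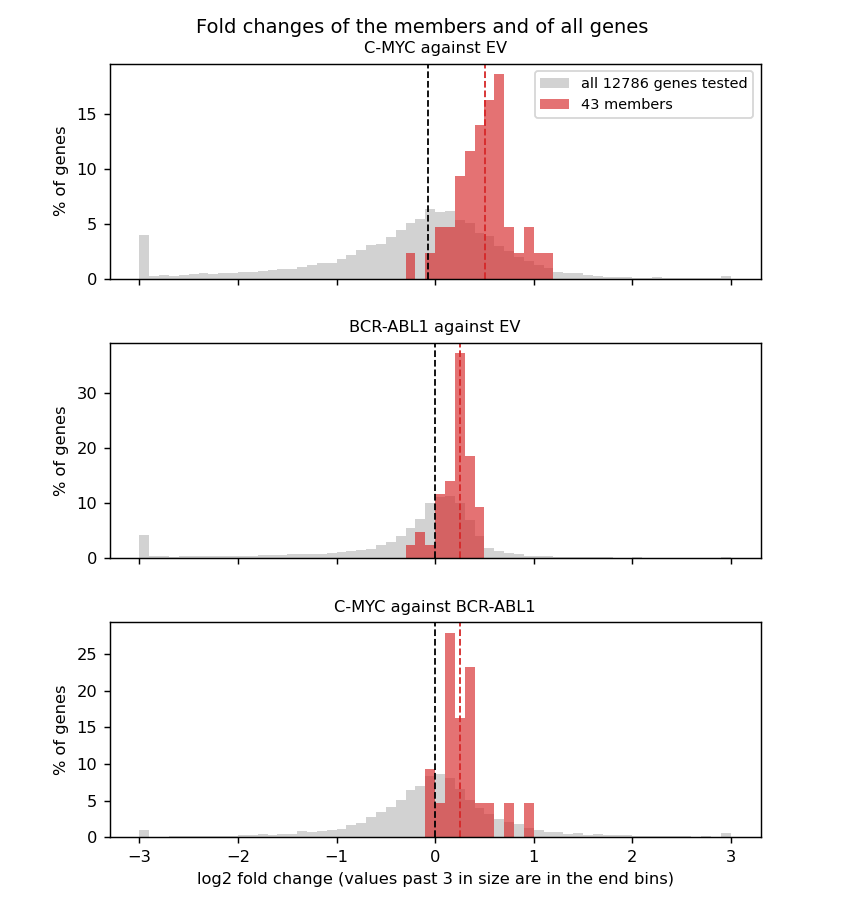
Share of genes (y axis, %) by log2 fold change (x axis, bins of 0.1) for the 43 members in red and all 12786 genes tested in grey in the 3 comparisons, with medians as dashed lines. The members form a narrow group right of the median of all genes in each, with medians of 0.50, 0.25 and 0.25.

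Of the alpha ring, whose subunits gate the barrel, 7 of 7 genes were higher in C-MYC, with a median log2 fold change of 0.45. Psma5 had the largest difference, with counts of 2127 and 2142 (EV libraries), 2424 and 2776 (BCR-ABL1 libraries) and 3274 and 4100 (C-MYC libraries). It was 1.77-fold higher in C-MYC than in EV (log2 0.82 ± 0.13 SE, edgeR adjusted p = 0.00204). Psma2 had the smallest, with counts of 4618 and 4681 (EV libraries), 4850 and 5771 (BCR-ABL1 libraries) and 5622 and 6032 (C-MYC libraries) (log2 0.36 ± 0.10 SE, edgeR adjusted p = 0.0219). Neither gene overlapped between C-MYC and EV once scaled to CPM. Psma2 was not called without the second EV library, either BCR-ABL1 library or either C-MYC library, with a log2 fold change of 0.30 to 0.44 across the libraries left out.

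Of the beta ring, 5 of 7 genes were higher in C-MYC with a median of 0.41, and these included all 3 genes of the catalytic sites. Psmb5, the chymotrypsin-like site and the main target of proteasome inhibitors, had counts of 1295 and 1386 (EV libraries), 1349 and 1848 (BCR-ABL1 libraries) and 1617 and 1941 (C-MYC libraries). Its log2 fold change between C-MYC and EV was 0.45 ± 0.14 SE (edgeR adjusted p = 0.0348), and the call was lost in 8 of 16 other settings, among them without the second EV library, either BCR-ABL1 library or either C-MYC library (0.33 to 0.56). Psmb6, the caspase-like site, had 2894 and 3067, 3399 and 3679, and 3708 and 3993 counts in the order EV, BCR-ABL1 and C-MYC, the order of all counts given without a condition below (log2 0.41 ± 0.10 SE, edgeR adjusted p = 0.0134). It lost the call in 1 of 16 other settings, without the second C-MYC library, at 0.38. Psmb7, the trypsin-like site, had 3818 and 4037, 4039 and 5033, and 5336 and 5643 counts (log2 0.52 ± 0.10 SE, edgeR adjusted p = 0.00488). The exons of Psmb7 overlap those of Nek6 on the other strand, which had 320 and 319 counts in EV and 873 and 899 in C-MYC, and the strand used in counting is not given. The 2 genes not called were Psmb1, with 4612 and 4854, 4770 and 5302, and 5260 and 4452 counts (log2 0.08 ± 0.12 SE, edgeR adjusted p = 0.627), and Psmb2 (log2 0.39 ± 0.14 SE, edgeR adjusted p = 0.0597). C-MYC and EV libraries overlapped for Psmb1 and did not for Psmb2.

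The ring of 6 ATPases that unfolds substrates had 5 genes called, with a median of 0.52. Psmc6 was highest, with counts of 2456 and 2876 (EV libraries), 3175 and 3724 (BCR-ABL1 libraries) and 3812 and 4270 (C-MYC libraries) (log2 0.64 ± 0.10 SE, edgeR adjusted p = 0.00224). Psmc3 was the member not called, with 4591 and 5159, 5255 and 5596, and 5805 and 5654 counts, although its C-MYC libraries were above EV in CPM (log2 0.28 ± 0.10 SE, edgeR adjusted p = 0.0506). Psmc3 shares exonic sequence with Slc39a13 on the other strand, which had 136 to 217 counts.

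In the rest of the 19S particle 8 of 11 genes were called, 2 of 3 in the base and 6 of 8 in the lid. Psmd7, a lid subunit that pairs with the deubiquitinase Psmd14, stood furthest from EV, with counts of 2377 and 3508 (EV libraries), 3132 and 3964 (BCR-ABL1 libraries) and 5738 and 6096 (C-MYC libraries). It was 2.08-fold higher in C-MYC (log2 1.06 ± 0.14 SE, edgeR adjusted p = 0.00122), whereas Psmd14 itself had a log2 fold change of 0.54 ± 0.10 SE (edgeR adjusted p = 0.00491). Both were called in every other setting. Psmd2 and Psmd1, the large scaffolds of the base, were higher by 0.58 ± 0.10 and 0.68 ± 0.09 (log2, SE). Psmd8 had the smallest difference of the particle, with counts of 6197 and 5252 (EV libraries), 5668 and 6054 (BCR-ABL1 libraries) and 6533 and 5337 (C-MYC libraries), and overlapping libraries (log2 0.08 ± 0.16 SE, edgeR adjusted p = 0.701). Not called were also Psmd4, a ubiquitin receptor (log2 0.29, edgeR adjusted p = 0.0578), and Psmd13 (log2 0.26, edgeR adjusted p = 0.0743).

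The factors that assemble the particles held both the largest differences and genes that were not called. The 20S chaperones had a median log2 fold change of 0.98 with 3 of 4 called. Psmg1, on chromosome 16 (95979933 to 95990960, minus strand, GRCm38), had counts of 423 and 610 (EV libraries), 633 and 729 (BCR-ABL1 libraries) and 1117 and 1108 (C-MYC libraries). At 2.23-fold (log2 1.16 ± 0.15 SE, edgeR adjusted p = 0.0011) it was the member with the largest difference. Its partner Psmg2 was higher by 0.95 ± 0.13 and Psmg3 by 1.00 ± 0.16 (log2, SE), and all 3 were called in every other setting. Psmg4, which pairs with Psmg3, had 541 and 466, 466 and 536, and 624 and 583 counts (log2 0.29 ± 0.17 SE, edgeR adjusted p = 0.188). Of the 19S chaperones, Psmd5 was higher in C-MYC, with 932 and 1159, 1202 and 1415, and 1620 and 1785 counts (log2 0.75 ± 0.12 SE, edgeR adjusted p = 0.00231). Psmd10, also known as gankyrin, had 656 and 645, 623 and 816, and 658 and 717 counts with overlapping libraries (log2 0.12 ± 0.14 SE, edgeR adjusted p = 0.547). Psmd9 had a log2 fold change of 0.30 ± 0.12 SE (edgeR adjusted p = 0.0821).

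Of the 4 activators 2 were called higher in C-MYC than in EV, and both are nuclear. Psme3, PA28 gamma, had counts of 7326 and 8354 (EV libraries), 9878 and 10858 (BCR-ABL1 libraries) and 14501 and 11457 (C-MYC libraries), and was 1.71-fold higher in C-MYC than in EV (log2 0.77 ± 0.13 SE, edgeR adjusted p = 0.00279). Psme4, PA200, had counts of 4119 and 4115 (EV libraries), 3367 and 3702 (BCR-ABL1 libraries) and 6503 and 6425 (C-MYC libraries). It was 1.61-fold higher in C-MYC than in EV (log2 0.69 ± 0.10 SE, edgeR adjusted p = 0.00173) and 1.87-fold higher than in BCR-ABL1 (log2 0.91 ± 0.10 SE, edgeR adjusted p = 0.00167), while BCR-ABL1 against EV gave -0.22 ± 0.10 (edgeR adjusted p = 0.196). Its BCR-ABL1 libraries were both below the EV libraries in CPM.
Psme1 and Psme2, which lie at chr14:55578123-55581529 and chr14:55587441-55591113 (GRCm38) and are induced by interferon in many cells, were the members with a log2 fold change below 0 in C-MYC against EV, Psme2 turning to 0.0036 with DESeq2. Psme1 had counts of 6360 and 5500 (EV libraries), 5272 and 5274 (BCR-ABL1 libraries) and 4893 and 4936 (C-MYC libraries) (log2 -0.24 ± 0.14 SE, edgeR adjusted p = 0.202). With a library left out the log2 fold change of Psme1 ran from -0.41 to -0.04, the first of these without the second EV library, where Psme1 was called lower. Psme2 had 4069 and 3431, 2974 and 3772, and 3342 and 3760 counts, with overlapping libraries (log2 -0.05 ± 0.15 SE, edgeR adjusted p = 0.816), and its reads can be shared with the near-identical retrocopy Psme2b. The inhibitor Psmf1 (PI31) had 1387 and 1174, 1451 and 1495, and 1539 and 1267 counts, also overlapping (log2 0.16 ± 0.17 SE, edgeR adjusted p = 0.478).

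BCR-ABL1 libraries were above EV for most members, by differences that the test called for few of them. Of 43 members 4 (9.3%) were called higher, where 5.08% of all genes tested and 6.8% of those with counts at least as high were, and 0 were lower, where 12% of genes were. The unadjusted edgeR p was under 0.05 for 18 members, and in either direction for 3990 of the 12786 genes. DESeq2 called 9 members higher, beside 959 of its 17273 genes. With the replicate number as a block 11 members were called higher, beside 1221 of 12786 genes. The median log2 fold change of the members was 0.25, against 0.00 over all genes tested and 0.08 over the genes with counts at least as high. Libraries did not overlap, with BCR-ABL1 higher, for 34 members (79.1%; 29.2% of all genes). The 4 members called were Psmd1, Psmc6, Psma7 and Psma3. Without either BCR-ABL1 library 0 members were called.
Psmd1 had counts of 4935 and 5468 (EV libraries), 6519 and 7343 (BCR-ABL1 libraries) and 8102 and 8095 (C-MYC libraries), and was 1.34-fold higher in BCR-ABL1 than in EV (log2 0.42 ± 0.09 SE, edgeR adjusted p = 0.0179). It was the 1 member called in every setting in which no library was left out. Psmc6 had a log2 fold change of 0.38 ± 0.10 SE (edgeR adjusted p = 0.0423), and its counts stand above. Psma7, an alpha subunit, had 3544 and 3908, 4397 and 5151, and 5566 and 6153 counts (log2 0.36 ± 0.10 SE, edgeR adjusted p = 0.0406). Psma3 had 3599 and 3963, 4388 and 5253, and 5504 and 6220 counts (log2 0.35 ± 0.10 SE, edgeR adjusted p = 0.0499). Both also exceeded EV in C-MYC, by 0.69 ± 0.10 for Psma7 and 0.67 ± 0.10 for Psma3 (log2, SE).
By class, the medians in BCR-ABL1 against EV were 0.30 for the alpha ring, 0.23 for the beta ring, 0.25 for the ATPases, 0.27 for the base and 0.26 for the lid. The assembly chaperones Psmg1 and Psmg2 had 0.41 ± 0.15 and 0.42 ± 0.13, neither called, and Psmg3 had 0.10 ± 0.16 (log2, SE). The 31 members of the 20S and 19S particles were above 0 here too, with a range of 0.03 to 0.42. Psmd8 fell below 0 with library totals (-0.038), upper quartile scaling (-0.018), the filter of 50 counts and FPKM. It also did with a library left out, at the lowest -0.153. Of the other 12 members 8 were above 0. The comparison of BCR-ABL1 with EV and that of C-MYC with EV share the EV libraries, so their values are not independent.

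The direct comparison of the oncogenes, in a fit where the EV libraries still entered the filter, the scaling and the estimate of the spread, called 11 members (25.6%) higher in C-MYC, where 11.5% of all genes and 13.2% of those with counts at least as high were, and 0 lower, where 11.9% of genes were. The unadjusted edgeR p was under 0.05 for 20 members, and in either direction for 4780 of the 12786 genes. DESeq2 called 17 members higher, beside 1782 of its 17273 genes. The replicate block called 19, beside 2110 of 12786 genes, and a fit of the 4 libraries compared 18, beside 2271 of 12163. The median log2 fold change was 0.25, against 0.00 over all genes, and libraries did not overlap for 32 members (74.4%; 34.5% of all genes). The 11 were Psma5 and Psma7 of the alpha ring, Psmc5 of the ATPases, Psmd3, Psmd7 and Psmd12 of the lid, the chaperones Psmd5, Psmg1, Psmg2 and Psmg3, and Psme4. No beta subunit was among them. Psme4, Psmg3 with counts of 275 and 335 (EV libraries), 286 and 365 (BCR-ABL1 libraries) and 543 and 640 (C-MYC libraries) (log2 0.90 ± 0.16 SE, edgeR adjusted p = 0.00766), Psmd7 (log2 0.78 ± 0.14 SE, edgeR adjusted p = 0.00859) and Psmg1 (log2 0.75 ± 0.15 SE, edgeR adjusted p = 0.0124) were furthest apart. Psmg3 shares exonic sequence with another annotated gene, Gm26938, which is not in the count table. Without the first or second BCR-ABL1 library 1 or 3 members were called, without the first or second C-MYC library 4 or 2, and without either EV library 18. Psme4 was called under every setting. Myeloid markers, at 159 to 171 CPM in BCR-ABL1 and 205 to 346 in C-MYC, were low in both of these conditions relative to EV, and B cell precursor markers were lower in C-MYC.

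Levels of different members can be compared only per length, and the length is uncertain. By the deposited FPKM, averaged over the 6 libraries, Psmd8 (255.8), Psmb7 (247.3) and Psmd2 (245.9) ranked highest, and Psmg4 (9.67), Psmd10 (17.01) and Psmg3 (19.71) lowest. The order at the top differed between conditions, since in C-MYC libraries Psmd2 (288.3), Psmb7 (287.7) and Psme4 (274.5) had mean FPKM above Psmd8 (253.9), and in EV libraries Psme1 (247.3) stood next below Psmd8 (260.2). By CPM per kilobase of annotated exon the highest were Psme3 (157.8), Psma6 (154) and Psmb2 (129.8), and the lowest Psmd9 (5.054), Psmg3 (6.296) and Psmd5 (8.354). Psme4 ranked 5 by FPKM and 36 by CPM per kilobase. Psmg3 was among the 3 lowest by both measures.

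Other genes of the pathway were counted in lists chosen by function, beside shares of all genes tested of 18.6% called higher and 24.5% lower in C-MYC against EV, 5.08% and 12% in BCR-ABL1 against EV, and 11.5% and 11.9% in C-MYC against BCR-ABL1. Of 10 tested factors that bind the proteasome, 6 were higher and 0 lower in C-MYC than in EV, with a median log2 fold change of 0.47, 2 were higher in BCR-ABL1 than in EV, and 3 higher in C-MYC than in BCR-ABL1. Usp14, a deubiquitinase of the 19S particle, had counts of 2024 and 2343 (EV libraries), 2866 and 3322 (BCR-ABL1 libraries) and 4576 and 4592 (C-MYC libraries) (C-MYC against EV log2 1.11 ± 0.10 SE, edgeR adjusted p = 0.000325). It was called in all 3 comparisons, but without either BCR-ABL1 library only in C-MYC against EV. The same omissions ended the other calls of this list that involve BCR-ABL1, those of Txnl1 against EV and of Uchl5 and AI314180 against C-MYC. These calls were also lost without either C-MYC library and with either fit of FPKM. That of Txnl1 was lost with library totals and the fit of 4 libraries too. In C-MYC against EV, Uchl5, the other bound deubiquitinase, was higher by 0.92, AI314180 (Ecm29) by 0.73 and Txnl1 by 0.66. Pomp, the maturation factor of the 20S particle, had 2559 and 2520, 2802 and 3405, and 2980 and 2943 counts (log2 0.26 ± 0.11 SE, edgeR adjusted p = 0.0936).
Of 11 shuttle factors and genes of the p97 complex, which carry ubiquitinated proteins to the proteasome, 6 were higher in C-MYC than in EV and 0 lower. Among them were Ubqln4 (log2 0.91), Nsfl1c (0.72), Rad23b (0.70) and Vcp, which is p97 itself (0.62). BCR-ABL1 against EV called 1, Rad23b, and C-MYC against BCR-ABL1 called 2, Ubqln4 and Nsfl1c. The Rad23b call was lost in 9 of 16 other settings, among them without either EV or either BCR-ABL1 library (0.36 to 0.49). Both other calls were lost without either BCR-ABL1 library or the first C-MYC library, and that of Nsfl1c also without the second C-MYC library. Of 4 ubiquitin genes and E1 enzymes, 3 were higher in C-MYC than in EV and 0 lower, while neither other comparison called any. Rps27a, which encodes ubiquitin fused to a ribosomal protein, was higher (log2 0.68 ± 0.13 SE, edgeR adjusted p = 0.00505), but limma on log2(FPKM + 1) gave 0.20 and did not call it. The E1 enzymes Uba6 and Uba1, which activate ubiquitin, were higher by 0.45 ± 0.14 and 0.33 ± 0.09 (log2, SE, edgeR adjusted p = 0.0327 and 0.0239). Without either BCR-ABL1 library or the first C-MYC library neither E1 enzyme was called, and Uba6 was not called without the second EV library or the second C-MYC library either (0.36 to 0.52 for Uba6 and 0.26 to 0.33 for Uba1). Neither enzyme was called with library totals or with either limma fit.
Of 8 regulators of proteasome genes, 1 was higher and 1 lower in C-MYC than in EV, namely Hsf1 (log2 0.46, edgeR adjusted p = 0.0301) and Nfya (log2 -0.56, edgeR adjusted p = 0.0133), shares no higher than those of all genes. The Hsf1 call was lost in 8 of 16 other settings, among them without the first EV library, either BCR-ABL1 library or either C-MYC library (0.31 to 0.48), and the Nfya call without either C-MYC library (-0.52 and -0.60). Nfe2l1 had counts of 1982 and 2207 (EV libraries), 1863 and 2229 (BCR-ABL1 libraries) and 2488 and 2451 (C-MYC libraries) (log2 0.28 ± 0.10 SE, edgeR adjusted p = 0.0594), and Nfe2l2 gave -0.36 ± 0.22 (edgeR adjusted p = 0.227). Ngly1, the glycanase that processes the NFE2L1 protein, had counts of 996 and 1170 (EV libraries), 1876 and 2434 (BCR-ABL1 libraries) and 818 and 897 (C-MYC libraries). It was 1.99-fold higher in BCR-ABL1 than in EV (edgeR adjusted p = 0.00215) and lower in C-MYC than in BCR-ABL1 (log2 -1.29 ± 0.12 SE, edgeR adjusted p = 0.000955). Both Ngly1 calls held with each library left out.

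The immunoproteasome subunits, which can replace the 3 catalytic subunits, for example in cells exposed to interferon, had 0 genes called higher in any comparison. Called lower were 1 of 3 in C-MYC against EV and 2 of 3 in BCR-ABL1 against EV, where 24.5% and 12% of all genes tested were. Psmb9 had counts of 5051 and 3361 (EV libraries), 2261 and 2726 (BCR-ABL1 libraries) and 2007 and 2117 (C-MYC libraries), and was lower than EV in C-MYC (log2 -1.01 ± 0.22 SE, edgeR adjusted p = 0.0077) and in BCR-ABL1 (log2 -0.77 ± 0.22 SE, edgeR adjusted p = 0.0463). Without the first EV library these became -0.58 and -0.34. The C-MYC call was lost without the first C-MYC library (edgeR adjusted p = 0.0587), and the BCR-ABL1 call in 10 of 16 other settings, among them without the first EV library, either BCR-ABL1 library or either C-MYC library (edgeR adjusted p = 0.0596 to 0.211). Psmb10 was lower than EV in BCR-ABL1 (log2 -0.74 ± 0.16 SE, edgeR adjusted p = 0.0199, -0.46 without the first EV library), with -0.30 in C-MYC. The BCR-ABL1 call of Psmb10 was lost without either BCR-ABL1 library (log2 -0.755 and -0.721). Psmb8 was called in neither comparison, at -0.16 in C-MYC and -0.22 in BCR-ABL1. Of 7 interferon-stimulated genes, 7 were lower in C-MYC than in EV and 5 in BCR-ABL1, with median log2 fold changes of -2.52 and -1.31. Irf1, a transcription factor induced by interferon, was at -2.11 and -1.60. These genes, like the myeloid, T and NK cell and stromal markers, were highest in EV, and the part of those cells in the differences was not tested.

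**Figure D5:**
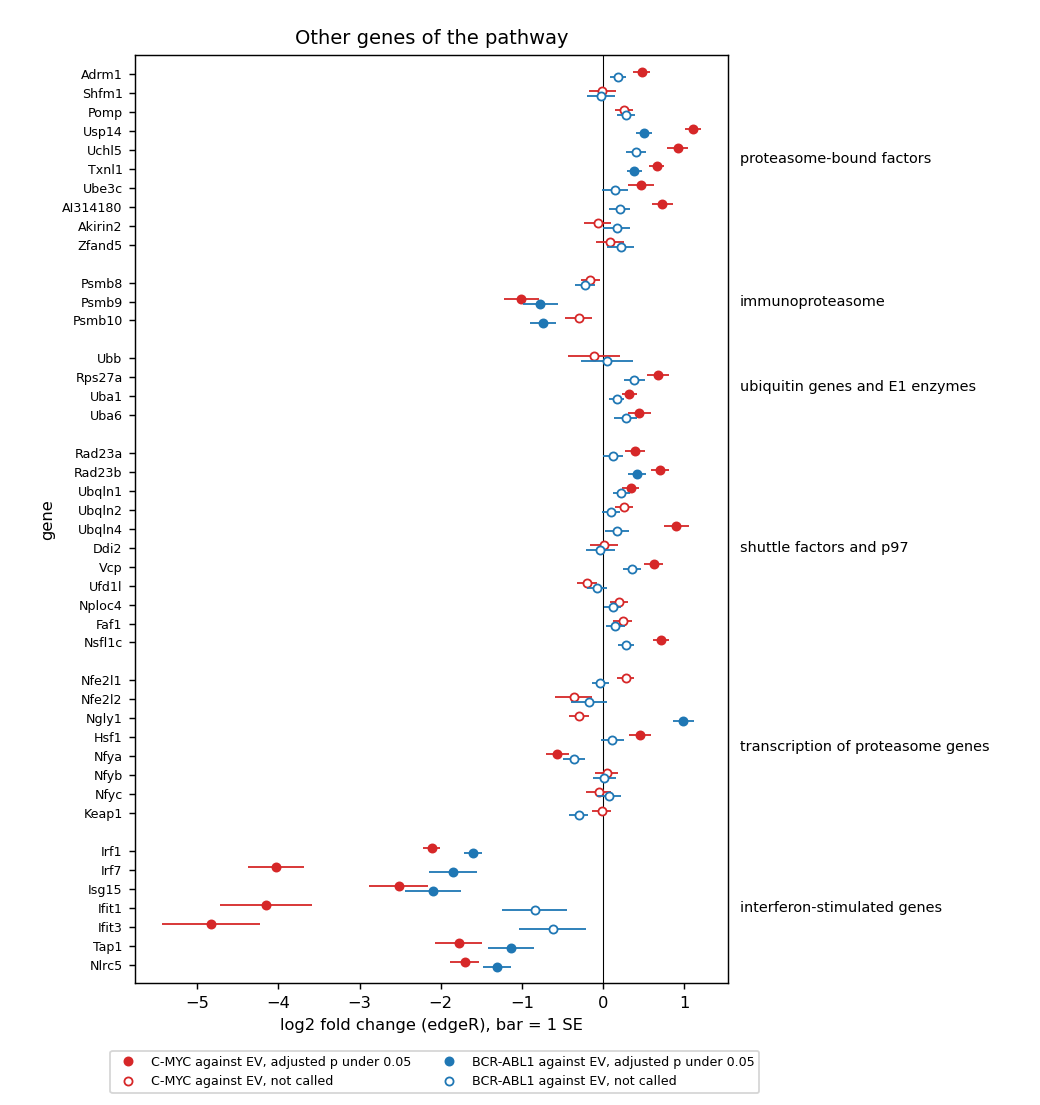
log2 fold change against EV (x axis, edgeR, bars are 1 SE) of the other pathway genes for C-MYC (red) and BCR-ABL1 (blue), grouped by list; filled points passed an adjusted p of 0.05. Usp14 at 1.11 and Uchl5 at 0.92 lie right of 0 in C-MYC, Ngly1 at 0.99 lies right of 0 in BCR-ABL1, and Psmb9 and the interferon-stimulated genes lie left of 0 in both.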

How the data were processed

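RNA-seq of 6 libraries (2 each of EV, BCR-ABL1 and C-MYC) was used. The deposited gene counts and FPKM values were made by the authors, whose processing notes and methods name STAR 2.5.0, StringTie 1.3.0, the mm10 (GRCm38) genome and UCSC known genes. The counting program and its strand setting are not given in the sources used here. Of the deposited counts, 12786 genes passed edgeR's filterByExpr. The counts were scaled by TMM and fitted in edgeR 4.0.16 (R 4.3.3) by the quasi-likelihood method with condition as the only term over all 6 libraries, and p-values were adjusted by Benjamini-Hochberg over all genes tested with a threshold of 0.05. CPM values are TMM scaled. DESeq2 1.42.0 on the counts and limma 3.58.1 on log2(FPKM + 1) and log2(FPKM + 0.1) for genes with a mean FPKM of at least 1 were alternatives, as were other filters, other scalings, a replicate block, fits of 4 libraries and each library left out. The members and lists were chosen with earlier results of these data known. Genes named in full were those with the largest and smallest difference per class between C-MYC and EV, the catalytic subunits, all activators, the members called in BCR-ABL1 against EV, and up to 4 genes per list by p in C-MYC against EV; other members, and the library-by-library values of Psmg3, were named after their values were seen. A few genes of the pathway and marker lists are not reported here. Positions and overlaps came from GENCODE vM21, in which 19 members overlap another gene, 11 of them by exons. Replicates differed by more than sampling noise (chi-square per degree of freedom 10.13 to 42.89). The fit was tested on counts simulated with 1 spread for all genes and with changes put into the C-MYC libraries only. In C-MYC against EV it recovered 6 of 100 genes changed by 0.5 and 81 of 100 changed by 1 (log2). In the data the median SE in this comparison was 0.11 for members and 0.18 for all genes tested. The recovered shares therefore do not describe the members.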

Additional observations from a re-analysis of the deposited data

How the results depend on the processing

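Of the 2 libraries per condition, each was left out in turn, and filter, scaling, test, unit or fit was changed. DESeq2 used its own scaling and all 17273 genes, limma the 10642 genes past the FPKM minimum, and the fits of 4 libraries their own filter, so that these change more than 1 step. Over members, comparisons and 16 settings, 1799 values kept their direction and their side of the threshold, 88 gained a call, 128 lost one and 49 changed sign, and over 25 named pathway genes these were 1044, 51, 85 and 17. The causes were not tested.

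The 31 members higher in C-MYC than in EV became 16 of the 24 that overlap no other gene, where fewer members are counted, and 23 to 35 with a library left out. The 0 called lower became 0 to 1. The 4 higher in BCR-ABL1 than in EV became 1 with the filter of 50 counts, upper quartile scaling, library totals or limma on log2(FPKM + 1) or log2(FPKM + 0.1), 2 with 4 libraries or among members that overlap no other gene, 9 with DESeq2, and 0 to 6 with a library left out. The 11 higher in C-MYC than in BCR-ABL1 became 17 with upper quartile scaling or DESeq2, 6 with either limma fit, 18 with 4 libraries, 4 among members that overlap no other gene, and 1 to 18 with a library left out.

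The median member in C-MYC against EV moved from 0.501 to 0.468 with the filter of 50 counts, 0.545 with DESeq2 size factors, 0.382 with library totals, 0.554 with DESeq2, 0.368 and 0.371 with limma, 0.556 with 4 libraries and 0.457 to 0.508 with a library left out. In BCR-ABL1 against EV it moved from 0.249 to 0.215 with the filter of 50 counts, 0.199 with upper quartile scaling, 0.179 with library totals, 0.193 and 0.195 with limma and 0.22 to 0.274 with a library left out. In C-MYC against BCR-ABL1 it moved from 0.252 to 0.292 with upper quartile scaling, 0.203 with library totals, 0.192 and 0.195 with limma and 0.239 to 0.286 with a library left out. All of these stayed above 0.

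The labels give both libraries of a condition a replicate number, and same-numbered libraries deviated together (r across genes 0.364 for EV and BCR-ABL1, 0.305 for EV and C-MYC, 0.314 for BCR-ABL1 and C-MYC), but nothing says what a number marks. With the replicate block, 35 members were higher in C-MYC than in EV, 11 in BCR-ABL1 than in EV and 19 in C-MYC than in BCR-ABL1. The 4 added in C-MYC against EV were Psmb2, Psmc3, Psmd4 and Psmd13.

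Over all genes, BCR-ABL1 against EV gave 650 higher and 1530 lower calls, against 375 and 961 with the filter of 50 counts, 396 and 1647 with library totals, 248 and 807 or 246 and 797 with limma, 1221 and 2003 with the block, 402 and 1332 with 4 libraries, and 118 to 1000 higher and 547 to 1799 lower with a library left out. C-MYC against BCR-ABL1 gave 1468 and 1523, against 876 and 1244 or 900 and 1325 with limma, 2271 and 2267 with 4 libraries, and 176 to 2235 and 442 to 2284 with a library left out. C-MYC against EV gave 2383 and 3132, against 1431 to 2701 and 1898 to 3376 with a library left out. Library totals moved the higher share of calls from 43.2% to 32.2% in C-MYC against EV and from 29.8% to 19.4% in BCR-ABL1 against EV, and the median of all genes in C-MYC against EV from -0.076 to -0.194.

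Sign changes were in genes not called in the comparison concerned. In C-MYC against EV, Psmb1 (0.078) became -0.0421 with library totals, -0.0474 and -0.0483 with limma and -0.059 to 0.215 with a library left out. Psmd8 (0.085) became -0.0343, -0.0301 and -0.0301 in the same fits and -0.1 to 0.302. Psmd10 (0.116) became -7.72e-05 with library totals. Psme2 (-0.049) became 0.00365 with DESeq2, 0.0064 with 4 libraries and -0.237 to 0.172. With a library left out Psmf1 ran from -0.0214 to 0.382, Psmb8 from -0.297 to 0.00376, Nfe2l2 from -0.649 to 0.00212 and Ubb from -0.64 to 0.284. In BCR-ABL1 against EV, Psmd8 (0.031) became -0.00296 with the filter of 50 counts, -0.0182 with upper quartile scaling, -0.0381 with library totals, -0.0281 and -0.0281 with limma and -0.153 to 0.25 with a library left out. Ubb (0.048) became -0.0036 with upper quartile scaling, -0.0244 with library totals and -0.235 to 0.416. Psmd9 (0.079) became -0.000911 and -0.00092 with limma. Psmg4 (-0.012) became 0.00694 with DESeq2 size factors, 0.0151 with DESeq2 and -0.187 to 0.192. With a library left out Psme1 ran from -0.34 to 0.0336, Psme2 from -0.351 to 0.0588, Hsf1 from -0.0227 to 0.283, Nfe2l1 from -0.0673 to 0.00942 and Nfe2l2 from -0.455 to 0.196. In C-MYC against BCR-ABL1, Psmb1 (-0.015) became 0.00941 with DESeq2 size factors, 0.0247 with upper quartile scaling, 0.0106 with DESeq2 and -0.159 to 0.114 with a library left out. Psmd10 (-0.023) became 0.00143, 0.0176 and 0.00223 in the same fits and -0.121 to 0.0888. Psmd8 (0.054) became -0.002 and -0.00203 with limma and -0.118 to 0.206. Psmf1 (-0.036) became 0.004 with upper quartile scaling and -0.202 to 0.111. Rps27a (0.296) became -0.105 and -0.105 with limma, and Pomp (-0.028) 0.013 with upper quartile scaling and -0.0739 to 0.0273. With a library left out Psmb2 ran from -0.0424 to 0.248, Psme1 from -0.154 to 0.0254 and Ubb from -0.695 to 0.229.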
